A study of Mus musculus with 9 samples.

Results

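Primordial germ cells (PGCs) sorted from the genital ridges of male mouse embryos at E13.5 were compared with male embryonic stem (ES) cells that had received a control siRNA. The groups held 3 arrays each, 6 of the 9 arrays in the series, and every probe other than the control spots was examined. The series as a whole asked how Max, the partner of the Myc and Mga proteins on DNA, bears on germ cell genes in ES cells, and the PGC arrays give the level of each gene in germ cells of the embryo. The remaining 3 arrays, of ES cells with Max knocked down, entered here only through the shared estimate of the spread and the choice of probes.

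The ES cells were the 129SV line VV3, a single line, grown with LIF in medium with 14% KSR and 1% FBS. They were transfected with the AllStars siRNA, which silences no gene, and live single cells were sorted 3 days later. The PGCs came from MCH x C57BL6/J embryos with the Oct4ΔPE-GFP transgene, in which an Oct4 (Pou5f1) enhancer region drives GFP, and were sorted as GFP-positive cells after trypsin digestion. The sources used here do not say how many embryos went into a sample. Strain, culture against embryo, siRNA transfection, transgene, dissociation and slide all changed together with the cell type, and their parts in a difference cannot be told apart. The submitters called the replicates biological. A lower level in these bulk samples can mean fewer cells that carry a transcript or less of it per cell, and those cannot be told apart either.

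PGCs arise from the epiblast, move into the genital ridges and erase most of their DNA methylation, including that of imprinted genes. In a male gonad they then leave the cell cycle, take up the program of prospermatogonia under Nanos2, and make the piRNA machinery that silences transposons. ES cells resemble the epiblast of the blastocyst: they cycle rapidly, share Pou5f1, Sox2 and Nanog with germ cells, and keep meiotic and piRNA genes largely silent, in part through PRC1.6, a Polycomb complex that holds Max, Mga, E2f6 and Pcgf6.

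Levels are log2 signals minus the 75th percentile of the array, and a difference is the PGC mean minus the control mean with its standard error (SE) from limma over 3 arrays against 3. A gene is said to have risen or fallen when its adjusted p was below 0.05. Of 20159 genes or unnamed identifiers tested, 8796 rose (43.6%) and 6557 fell (32.5%), 76.2% in either direction, and 4012 rose at least 2-fold (19.9%) while 4091 fell at least 2-fold (20.3%). With changes this common, the share of a gene list that moved is read against these percentages. The median difference over everything tested was 0.18. The germ cell arrays all lay above the control arrays for 45.3% of those tested and all below them for 33.7%. Arrays of 1 group correlated at 0.993 to 0.995 across genes and arrays of different groups at 0.865 to 0.879. The controls had 62.3% to 67.6% of spots above background and the PGCs 58.2% to 65.1%, and no spot was saturated.

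The direction of small changes depended on the scale. Against the spike-in transcripts, the 75th percentile of the control arrays stood at -0.60, -0.63 and -1.83 and that of the PGC arrays at -1.39, -2.35 and -2.17, so the shift between slides among the controls was as large as that between groups. Scaled to the spike-ins, the median of all genes was -0.77 and rises made up 13.6% of the calls, against 57.3% on the main scale. On that scale 28 of the rises named in the text, each of 2.13 or less on the main scale, no longer passed the test, and 2 changed sign, Max and Pdk3.

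**Figure D1:**
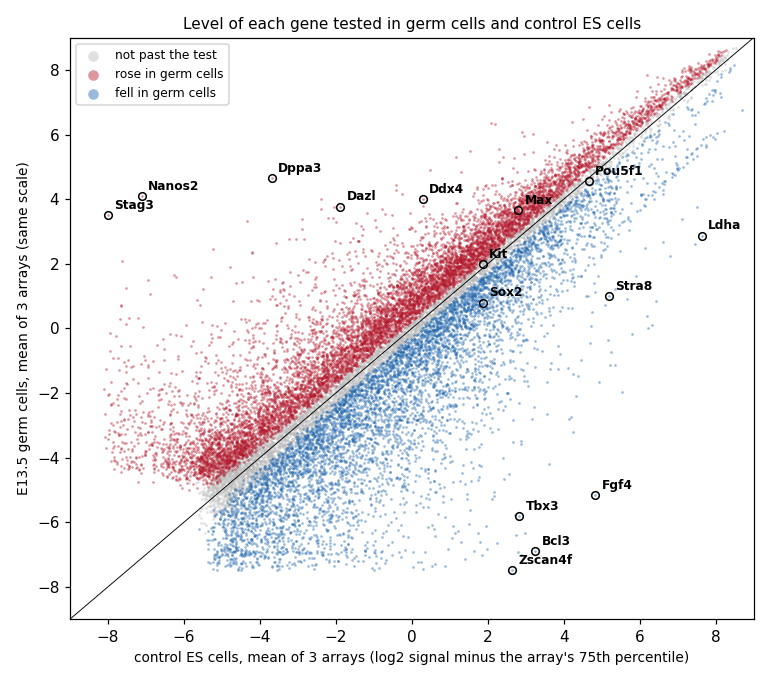
Each point is 1 of the 20159 genes or identifiers tested, with its mean level over 3 control ES cell arrays on the horizontal axis and over 3 E13.5 germ cell arrays on the vertical axis, in log2 signal minus the array's 75th percentile. Red points rose, blue points fell and grey points did not pass the test, the line marks equal levels, and circles mark genes named in the text, with Stag3 and Nanos2 farthest above the line and Bcl3, Zscan4f and Fgf4 farthest below it.

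The sort gave cells with germ cell markers. Of 8 germ cell markers, 7 rose and Kit, the receptor that PGCs share with ES cells, differed by 0.11 ± 0.12 (adjusted p = 0.42), beside 43.6% of all genes that rose. The summed signal of the 8 markers, in multiples of the array's 75th percentile, was 127 to 146 on the PGC arrays and 9.91 to 10.8 on the control arrays. For 7 ES cell markers the sum was 21.1 to 24.1 in PGCs and 50 to 65.4 in ES cells, with 5 lower and 2 higher. Both groups are labelled male. Xist and Kdm5d were not well above background on any of the 6 arrays, and Eif2s3y, a Y-linked translation factor gene, was above background on all 6 and 1.72 ± 0.13 higher in PGCs.

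Markers of other cell types of the gonad gave signal on the PGC arrays, several of them in ES cells too. Of 6 Sertoli cell markers tested, 2 rose and 1 fell, their summed signal ran from 2.72 to 5.09 in PGCs and from 3.35 to 4.06 in ES cells, and Cbln4 was not well above background on any PGC array. Amh, the Sertoli hormone that regresses the female ducts, stood at -2.90, -2.37 and -3.39 in PGCs and was below background in all controls, a rise of at least 7.44-fold. For Leydig and interstitial cells 4 of 7 markers rose and 1 fell, and the sum was 3.14 to 5.56 in PGCs against 1.34 to 2.75 in ES cells. Hsd3b1, a steroid-making enzyme, was at 0.34, 0.50 and -0.69 in PGCs and below background in the controls, a rise of at least 57-fold. Among 3 erythroid markers tested, Hba-a1 and Alas2 rose. Hba-a1, an alpha globin, was at 0.47, -0.21 and -1.15 in PGCs and at -4.36, -3.99 and -4.21 in ES cells, and the sum of all 6 erythroid markers on the array was 0.636 to 2.5 against 0.116 to 0.221. Markers of the remaining cell types were mixed. Of the leukocyte markers, Lyz2 was not well above background on any PGC array, while Csf1r was above it on all 3 and Ptprc on 2, and the sum was 0.559 to 0.651 in PGCs against 0.403 to 0.722. Of the endothelial markers, Tek, Tie1 and Emcn were not well above background on any PGC array and Kdr and Flt1 were on all 3, with a sum of 1.9 to 2.26 against 2.1 to 2.97. Of the fibroblast markers, Pdgfrb and Postn were not well above background on any PGC array, but Col1a1, Col1a2, Col3a1 and Thy1 were on all 3, and the sum over the 7 markers was 0.99 to 1.29 against 2.85 to 3.57. Of 5 tested 4 fell and Col3a1 rose by 1.08, a call that was lost without PGC replicate 1 or 2 and without control replicate 2 or 3, with differences of 0.85 to 0.999. Of 2 granulosa markers none rose and 1 fell, and the sum was 13 to 17.7 in PGCs against 13.4 to 14.1. The granulosa factor Foxl2 was at 3.68, 4.13 and 4.11 in PGCs and 3.78, 3.75 and 3.68 in ES cells, a high signal in both. The other marker, which fell, was at -2.41, -2.25 and -2.16 in PGCs and -1.44, -1.14 and -0.79 in ES cells. What other gonadal cells added to a given difference was not tested.

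**Figure D2:**
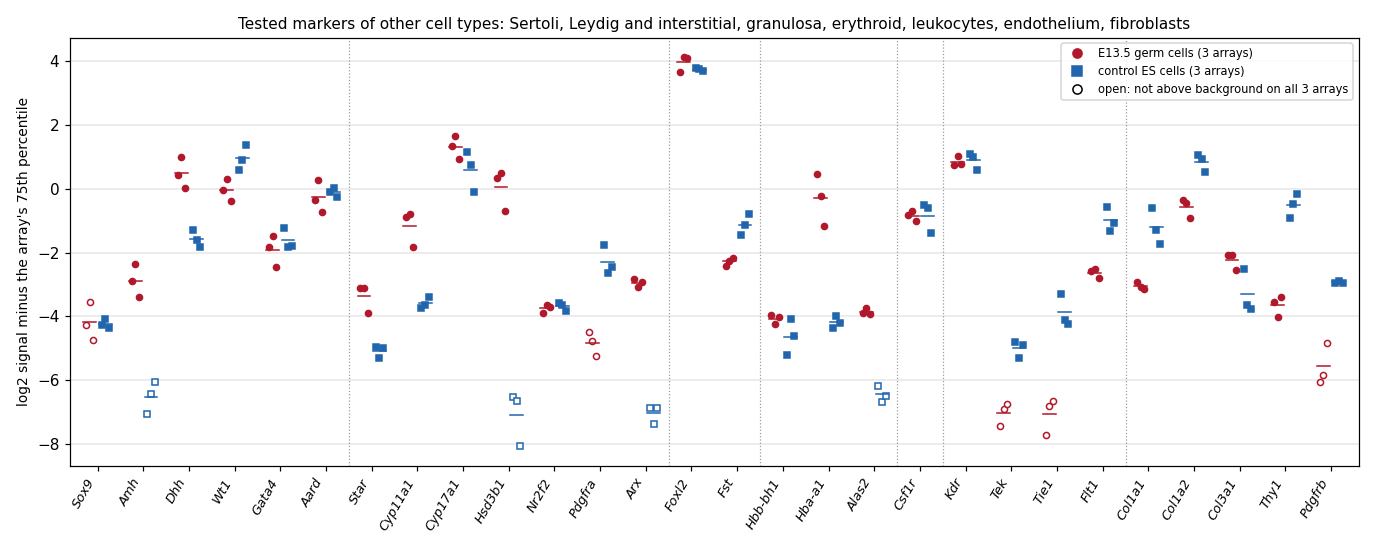
Level of each tested marker of gonadal somatic, blood, endothelial and fibroblast cells on every array, in log2 signal minus the array's 75th percentile, for 3 E13.5 germ cell arrays (circles) and 3 control ES cell arrays (squares), with a bar at each mean. Open symbols are groups in which the marker was not well above background on all 3 arrays, dotted lines separate the cell types in the order of the title, and the steroid enzyme Hsd3b1 and the globin Hba-a1 stand clear of the controls on all 3 germ cell arrays.

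Genes of germ cell RNA-binding proteins, which hold the germ cell state after transcription, were far higher in PGCs: 11 of 14 tested rose and 2 fell, with a median difference of 3.72 (3.56 with genes below background in the controls counted at their bound). Ddx4, the vasa helicase of the germ granule, was at 4.06, 3.81 and 4.12 in PGCs and at 0.44, 0.28 and 0.13 in ES cells, a rise of 3.71 ± 0.13 (13.1-fold, adjusted p = 5.4e-08). Dazl, which promotes translation in germ cells, was at 3.90, 3.65 and 3.77 against -1.20, -2.06 and -2.39, a rise of 5.65 ± 0.26 (50.3-fold, adjusted p = 2e-07). Neither gene's groups overlapped, and ES cell signal for both was above background on all 3 arrays.

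Nanos2, the repressor that sets the male germ cell fate, was at 4.12, 3.87 and 4.32 in PGCs. In the controls it was above background on 1 array only, at -5.19, with -8.04 and -8.09 on the others, and the fitted rise was 11.21 ± 1.01 (adjusted p = 1.1e-05). Nanos3, needed for PGC survival, rose by 4.50, Dnd1, which shields mRNAs from microRNAs, by 4.42 and Cpeb1, which controls poly(A) tails, by 3.72. The members that fell were Nanos1 and Meioc, with differences of -0.87 and -1.48. Ythdc2, the partner of Meioc in meiotic entry, differed by 0.00.

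The piRNA pathway moved as a block, with 20 of 20 members tested higher by at least 2-fold and a median of 3.81 (3.53 with bounds). Members below background in ES cells, such as Asz1 and Henmt1, passed the filter on dim genes through the PGCs alone. Over all settings tried, 15 to 20 members rose. Asz1, a scaffold of the germ granule between mitochondria, was at 1.35, 0.93 and 1.49 in PGCs and below background in every control, a rise of at least 131-fold. Piwil2, the PIWI protein of fetal male germ cells, was at 0.53, 0.19 and 0.48 against -2.31, -2.25 and -2.58, a rise of 2.78 ± 0.13 (6.85-fold, adjusted p = 2.2e-07). Mael, a factor of transposon silencing, was at 4.28, 3.93 and 4.40 against 1.46, 1.66 and 1.78. Each of these groups stood apart on all arrays. Mov10l1, the helicase that feeds precursors into the pathway, rose by 4.88 and Stk31 by 4.36. Tdrd5 and Tdrd9, tudor proteins of the granules, rose by 6.39 and 4.86, and Henmt1, which methylates the piRNA end, rose at least 10.5-fold. The smallest rise was that of Pld6, the mitochondrial nuclease, at 1.04.

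Genes of the meiotic chromosome axis were high in these male cells, which do not enter meiosis until after birth. In this list 12 of 13 rose, with a median of 2.19. Stag3, the meiotic cohesin subunit, was at 3.61, 3.44 and 3.44 in PGCs and below background on all control arrays, a rise of at least 620-fold and the largest fitted rise among named genes on this scale. Smc1b, another cohesin subunit of meiosis, was at 3.58, 3.22 and 3.42 against 1.23, 1.09 and 1.35, a rise of 2.19 ± 0.12 (4.55-fold, adjusted p = 4.2e-07). Sycp3, of the axial element, rose by 3.03 ± 0.14 (8.18-fold, adjusted p = 2e-07) and Sycp1, the transverse filament, by 3.05.

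Recombination genes were divided. Of 23 tested, 15 rose and 5 fell, with a median of 0.70 that turned to -0.26 when scaled to the spike-ins. Spo11, which makes the breaks that start recombination, was above background on all 3 PGC arrays and on no control array, at least 24.4-fold higher, and the crossover helicase Hfm1 was at least 43.2-fold higher. Prdm9, which places the breaks, rose by 1.54 and was above background on 1 control array. Dmc1, the meiotic strand exchange protein, went the other way with a difference of -2.27, as did Mei1 with -1.22 and Majin, of the telomere attachment, with -1.55.

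Genes of meiotic entry did not move one way. Stra8, the target of retinoic acid that starts meiosis, was at 0.46, 1.27 and 1.23 in PGCs and at 4.90, 5.20 and 5.45 in ES cells, a difference of -4.19 ± 0.24 (18.3-fold lower, adjusted p = 7.1e-07), and the groups lay far apart. Of 17 genes of retinoic acid and meiotic entry 7 rose and 8 fell, beside 43.6% and 32.5% of all genes. Cyp26b1, the enzyme of the fetal testis that degrades retinoic acid, was at 0.05, 0.39 and -0.77 against -3.01, -3.14 and -3.07, while Cyp26a1 was at least 14.6-fold lower and below background in PGCs. Aldh1a1, which makes retinoic acid, was at 2.07, 2.29 and 1.35 against -4.36, -5.04 and -4.95, a rise of 6.68 ± 0.27, and Aldh1a2 rose by 3.49. Cyp26b1, Aldh1a1 and Hsd3b1 were each lowest on the same PGC array, the third, and gonadal somatic cells also express these enzymes. The receptor Rarg and the transporter Stra6 fell by 2.20 and 2.62. Zglp1, a germ cell factor of oogenic fate, rose by 2.17.

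Genes that specify or mark PGCs moved unevenly. Of 18 in the list 10 rose and 4 fell, with a median of 0.51 that turned to -0.45 when scaled to the spike-ins. Dppa3 (Stella), which guards methylation in the egg and marks PGCs, was at 4.66, 4.66 and 4.67 in PGCs and at -3.56, -3.68 and -3.82 in ES cells, a rise of 8.35 ± 0.14 (325-fold, adjusted p = 3.2e-09). Prdm1 (Blimp1), the repressor that founds the lineage, rose by 4.54, Itgb3 by 5.63 on the brighter of its probes and 6.75 on the other, Ifitm1 by 4.14 and the homing receptor Cxcr4 by 2.28. Tfap2c, which acts beside Prdm1, fell by 1.90, and Cd38 fell by 2.15. Sall4 and Alpl (tissue non-specific alkaline phosphatase), used as markers of both cell types, differed by 0.02 and 0.15 and did not pass the test.

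Factors of the male fetal germ cell did not move one way, with 7 of 16 higher and 8 lower. Bnc1, at 0.82, 0.58 and 0.71 in PGCs, was below background in ES cells and at least 89.6-fold higher. Ret, the receptor later used by spermatogonial stem cells, and Id4 rose by 4.22 and 4.54, and Nxf2, an X-linked export factor, by 4.95. Nodal and its co-receptor Tdgf1 (Cripto), which signal in the fetal testis for a short time, differed by -1.48 and -5.98, and 2 other Tdgf1 probes gave -8.35 and -7.72. Of 11 oocyte factors tested 8 rose and 3 fell, although the germ cells were male. Nobox, at least 6.62-fold higher, Lhx8, by 2.98, and Sohlh1, by 2.92, are factors of early follicle growth, and Sohlh1 also acts in spermatogonia. Gdf9, Padi6 and Zp3 fell, with differences of -1.57, -1.65 and -3.73, whereas Zp1 was at least 23.8-fold higher.

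**Figure D3:**
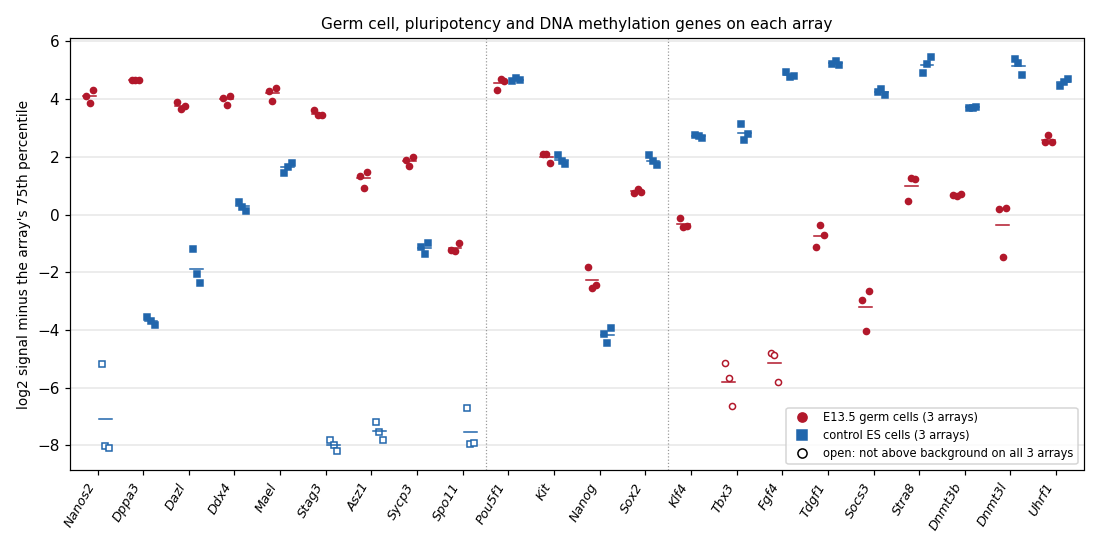
Level of 22 genes on each of 3 E13.5 germ cell arrays (circles) and 3 control ES cell arrays (squares), in log2 signal minus the array's 75th percentile, with a bar at each mean and open symbols where a group was not above background on all 3 arrays. Germ cell genes on the left are higher in germ cells, Pou5f1 and Kit overlap between the groups, and the genes from Klf4 to Uhrf1 on the right are higher in ES cells.

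A list of genes known as targets of PRC1.6 in ES cells was higher almost throughout: 21 of 22 rose, 20 of them at least 2-fold, with a median of 3.62. It overlaps the germ cell lists above, with Stag3, Asz1, Dazl and Ddx4 among its members. Brdt, the testis bromodomain protein, rose by 3.52 on 1 probe and 4.51 on the other, Tex101 by 5.96 and Slc25a31, the germ cell ADP/ATP carrier, by 4.69. Taf7l, an X-linked part of the germ cell transcription machinery, rose by 1.29. Of the complex itself, Max was at 3.77, 3.65 and 3.57 in PGCs and at 2.84, 2.74 and 2.85 in ES cells, a rise of 0.85 ± 0.14 (1.81-fold, adjusted p = 0.0004) that turned to -0.10 when scaled to the spike-ins. E2f6 was at 2.72, 2.80 and 3.04 against 1.29, 1.34 and 1.51, a rise of 1.48 ± 0.11. Mga differed by 0.26 ± 0.12 (adjusted p = 0.071, and 0.0037 without PGC replicate 2) and Pcgf6 by -0.06 ± 0.08 (adjusted p = 0.5), and the arrays of both groups overlapped for each.

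Max dimers bind the E-box, spelled CACGTG, which reads the same on both strands. RefSeq promoters (GRCm38.p6) were at hand for 20 of the 22 targets, and 12 of them (60%) held CACGTG within 250 bases before a start, as did 9.66% of 11364 genes tested that had a promoter and 6.02% of all 32851 promoters in the table. The share among genes that rose at least 2-fold was 10.5% and among those that fell at least 2-fold 8.37%. In the piRNA list 8 of 16 held it. The E2F motif TCCCGC on either strand was in 6 of the 20 (30%), against 32% of the genes tested. The 12 members with the E-box had a median difference of 3.88 and the 8 without it 3.68. The list was drawn from genes reported as bound by this complex, so the share describes the list and is no evidence of binding in these cells, and a match of letters is not a bound site.

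For the 11 of these 12 genes that rose at least 2-fold, the 30 bases around the E-box nearest to a start are shown, read 5′ to 3′ on the strand of the gene with the E-box in capitals, to let the flanks be compared.
Brdt: cgcaggcacagtCACGTGgcagaccctggc
Ddx4: ggcgtccgcccgCACGTGcagccgtttaag
Fkbp6: gcgtctatcgatCACGTGccgtttctctcg
Mael: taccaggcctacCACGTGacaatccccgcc
Mov10l1: ccttCACGTGctaaccgccaacctctcgtg
Slc25a31: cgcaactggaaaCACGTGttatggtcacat
Stag3: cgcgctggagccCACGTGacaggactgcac
Stk31: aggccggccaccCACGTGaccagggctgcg
Sycp3: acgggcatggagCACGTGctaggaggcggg
Taf7l: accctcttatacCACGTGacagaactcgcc
Tdrd1: gcgtgggtggggctgcgcgCACGTGggagt
The first base of the E-box lies 29 bases before the start for Ddx4, at chr13:112652322-112652351 on the minus strand, 43 for Sycp3, at chr10:88459532-88459561 on the plus strand, and 170 for Stag3, at chr5:138280327-138280356 on the plus strand. In Tdrd1 it lies 11 bases before a start, at chr19:56826179-56826208 on the plus strand. In 4 of the genes, Mael, Stag3, Stk31 and Taf7l, the E-box is followed by the same pair of bases, ac.

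In Sycp3 a further E-box lies 64 bases before the start, so the 100 bases before its start (chr10:88459487-88459586, plus strand) hold both, as shown here.
Sycp3: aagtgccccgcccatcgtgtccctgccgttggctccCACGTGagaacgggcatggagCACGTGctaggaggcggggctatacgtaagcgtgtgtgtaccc

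Clustered gene families of the germ line moved by family. The X-linked Rhox homeobox cluster was higher, with 15 of 16 tested rising and a median of 2.30. On the array were 19 members, and 11 to 15 rose over all settings tried. Rhox2c was at 3.23, 3.54 and 3.42 in PGCs against -2.91, -2.94 and -2.83, a rise of 6.29 ± 0.10, and Rhox10 rose by 3.77. Rhox8, which Sertoli cells express, went opposite ways on its probes, -1.58 and 1.23. The Mage family, cancer-testis antigens mostly on the X chromosome, had 10 of 13 higher and 3 lower. The array held 19 members, and those below background in ES cells were tested only through their PGC signal. Over all settings tried, 5 to 10 rose. Magea8 was at least 27.8-fold and Magea3 at least 10.1-fold higher, and the members that fell, Magel2, Mageh1 and Magee1, lie outside the A and B groups. Prame-like genes, of which several belong to the earliest embryo, went down instead, 11 of 16 lower and 3 higher, with a median of -2.52 (-1.54 with bounds, and 0.00 over the members above background on all 6 arrays). Pramel16 was at 0.90, 0.49 and 0.24 in ES cells and below background in PGCs, at least 52.3-fold lower, while Pramel13 and Pramel3 rose by 3.11 and 2.96. Probes of near-identical copies can pick up each other's transcripts in all of these families, so single members are less certain than the family.

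The central pluripotency factors were present in both cell types. Pou5f1, whose enhancer drove the GFP of the sort, was at 4.33, 4.71 and 4.65 in PGCs and 4.61, 4.73 and 4.66 in ES cells, a difference of -0.11 ± 0.12 (adjusted p = 0.43). Sox2 was at 0.74, 0.89 and 0.77 against 2.06, 1.85 and 1.71, a difference of -1.07 ± 0.12 (2.1-fold lower, adjusted p = 4.6e-05). Nanog was at -1.82, -2.55 and -2.43 against -4.13, -4.44 and -3.95, 1.91 ± 0.21 higher in PGCs by a dim probe. Among 12 core factors 2 rose and 7 fell, and Myc fell by 3.16.

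Of 26 genes of the naive state 20 fell and 5 rose, with a median of -1.46 (-1.28 with bounds), beside 32.5% of all genes that fell. Klf4, the reprogramming factor, was at -0.13, -0.43 and -0.41 in PGCs and 2.77, 2.73 and 2.66 in ES cells, a difference of -3.05 ± 0.12. Fgf4, through which ES cells signal to each other to leave self-renewal, was at 4.94, 4.78 and 4.79 in ES cells and above background on only 1 PGC array, with a fitted difference of -10.00 ± 0.24. Tbx3 was likewise above background on 1 PGC array and differed by -8.66 ± 0.33. Tfcp2l1 and Klf2 fell, with differences of -1.59 and -1.86, and the orphan receptor Nr0b1 fell by 4.84. Tcl1, which activates Akt, and Dppa4, a chromatin protein of early embryos, rose by 2.67 and 2.13.

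LIF, present in the ES cell medium, acts through Stat3. Socs3, the feedback inhibitor that Stat3 induces, was at -2.97, -4.04 and -2.65 in PGCs and 4.25, 4.34 and 4.13 in ES cells, a difference of -7.46 ± 0.31 (176-fold lower, adjusted p = 1.1e-07). Bcl3 was at 3.49, 3.18 and 3.09 in ES cells and below background on all PGC arrays, at least 343-fold lower, and Stat3 fell by 2.36. Of the 10 members tested, 6 fell and 3 rose, and LIF was in the culture alone, so its part cannot be told apart from that of cell type.

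Genes of the later epiblast were also lower, 12 of 17 down and 3 up, with a median of -1.78 (-1.55 with bounds). Pou3f1 (Oct6) fell by 3.95, Tead2 by 4.65 and Foxd3 at least 1.84-fold. The markers of the rare 2-cell-like state of ES cultures had the lowest median of the lists on this scale, -4.80 (-3.65 with bounds), with 10 of 11 down. Most of these passed the filter on dim genes through the ES cells alone, and 1 fell and 1 rose, with a median of -1.30, when a gene had to be above background on all 6 arrays. The only member of the list that rose gave 0.45 on the probe used but -2.80 and -3.21 on its other probes. Zscan4f was at 2.88, 2.65 and 2.40 in ES cells and below background in PGCs, at least 224-fold lower, Zscan4c at least 101-fold and Tcstv1 at least 12.6-fold. These copies are also nearly identical, so the probes cannot be assigned to 1 member with certainty.

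Dnmt3a, Dnmt3b, Dnmt3l and Uhrf1, genes that act in laying down or keeping DNA methylation, were lower in PGCs than in ES cells. Dnmt3b was at 0.66, 0.63 and 0.70 against 3.71, 3.71 and 3.73, a difference of -3.05 ± 0.08 (8.28-fold lower, adjusted p = 1.4e-08). Dnmt3l, the cofactor that directs methylation in male germ cells later in gestation, was at 0.20, -1.47 and 0.21 against 5.39, 5.27 and 4.84, and Dnmt3a fell by 1.78. Uhrf1, which brings the maintenance enzyme to replicated DNA, stood at 2.51 to 2.75 in PGCs and at 4.45 to 4.69 in ES cells, a difference of -1.99 ± 0.10. No array overlapped between the groups for these genes. Tet2, an oxidase of methylated cytosine, fell by 2.12. Over the whole list 11 of 23 rose and 10 fell, but no rise reached 2-fold, whereas 8 falls did. Zfp57, which protects imprints, gave -4.34 on 1 probe and -1.27 on the other.

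Imprinted genes were lower in 14 of 31 and higher in 7, with a median of -0.17. Those that fell most were Phlda2, at least 20.8-fold lower, Peg10, at least 12.4-fold, and Sgce and Grb10 with differences of -4.49 and -4.38. The noncoding Meg3 fell by 3.63 and Mirg, from the same cluster, by 3.19. The rises included Cdkn1c by 1.44, Ascl2 by 1.80, Usp29 by 1.51 and Ndn by 1.56. Both parental classes occurred in each direction, maternally expressed Phlda2 and Meg3 and paternally expressed Peg10 and Sgce among the falls, Cdkn1c and Ndn among the rises.

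Polycomb subunits split, 12 of 32 higher (37.5%) and 11 lower (34.4%), near the shares of all genes. Bmi1 and Cbx2, of PRC1, rose by 1.91 and 1.21 and Phf19, of PRC2, by 1.93. The methyltransferase Ezh2 fell by 1.49 and Rybp by 2.47. Among 20 genes of H3K9 methylation 9 rose (45%) and 5 fell (25%), beside 43.6% and 32.5% of all genes. Suv39h1 and Suv39h2 rose by 1.08 and 1.02, and the demethylase Kdm4c fell by 3.07.

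The cell cycle machinery of ES cells was lower in part. Of 15 cyclins, kinases and phosphatases 11 fell and 3 rose. Ccnd1, the cyclin of G1 entry, was at -1.60, -1.12 and -1.24 against 1.33, 1.46 and 1.62, a difference of -2.79 ± 0.16, and Ccne1 was at 1.69, 2.35 and 1.82 against 4.50, 4.81 and 4.62, a difference of -2.69 ± 0.17. The inhibitors moved in both directions. In the list of kinase inhibitors with the Rb and E2f genes, 6 of 19 rose and 8 fell, with a median of 0.03. Of all genes tested, 43.6% rose and 32.5% fell. Cdkn2a was at 2.65, 2.97 and 2.89 against 0.40, 0.29 and 0.17, a rise of 2.55 ± 0.13, Cdkn1c (p57) was at 2.93, 2.95 and 3.01 against 1.27, 1.48 and 1.83, and the retinoblastoma gene Rb1 was at 1.86, 1.57 and 1.73 against -0.55, -0.66 and -0.65. Cdkn1b (p27), which is known to act in arresting male germ cells, differed by -0.72 ± 0.13 and fell.

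Replication genes fell in 17 of 34 and rose in 8, none of the latter by 2-fold. Gins2, of the replicative helicase, fell by 3.24, the ribonucleotide reductase subunit Rrm2 by 2.60 and the licensing factor Cdc6 by 2.23, while Pcna and Mcm7 differed by -0.04 and 0.11 without passing the test. Mitotic genes fell in 12 of 23 and rose in 4, with a median of -0.26, against 0.18 for all genes. Plk1 and Kif23 fell by 1.06 and 1.35.

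Glycolysis was lower at nearly every step, in 21 of 24 genes, 19 of them by at least 2-fold, with a median of -2.11. The glucose transporter Slc2a3 was at 2.24, 2.23 and 2.22 in PGCs and 6.84, 6.72 and 6.83 in ES cells, a difference of -4.56 ± 0.11 (23.7-fold lower, adjusted p = 1e-08). Hk2, which traps glucose, was at -0.55, -0.76 and -0.54 against 3.22, 3.23 and 3.23, a difference of -3.84 ± 0.09. Pgk1 was at 3.81, 3.92 and 3.53 against 7.52, 7.56 and 7.46, a difference of -3.76 ± 0.11. Replicates differed by a small part of these gaps.

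At the end of the pathway the lactate dehydrogenase subunits crossed. Ldha, which favours lactate, was at 2.99, 2.95 and 2.69 against 7.39, 7.75 and 7.76, a difference of -4.76 ± 0.13 (27.1-fold lower), and its other probes gave -6.03 and -6.42. Ldhb, which favours pyruvate, was at 5.38, 5.55 and 5.42 against 3.30, 3.15 and 3.14, a rise of 2.25 ± 0.09 (4.77-fold). The lactate exporter Slc16a3 differed by -5.98 and Slc16a1 rose by 1.19. Pfkp and Gapdh fell on each of their probes but by different amounts, -4.20 and -0.40 for Pfkp and -0.82 on the brightest to -2.37 on another for Gapdh. In the list written for germ cell forms of metabolic enzymes, 7 of 12 rose and 3 fell. The rises included the carrier Slc25a31, Cyct, the testis cytochrome c, by 4.11 and Ldhc, the testis lactate dehydrogenase, by 1.97. The lowest member, at -2.28, was a hexokinase gene also counted in the glycolysis list, so not every fall was of a germ cell form.

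**Figure D4:**
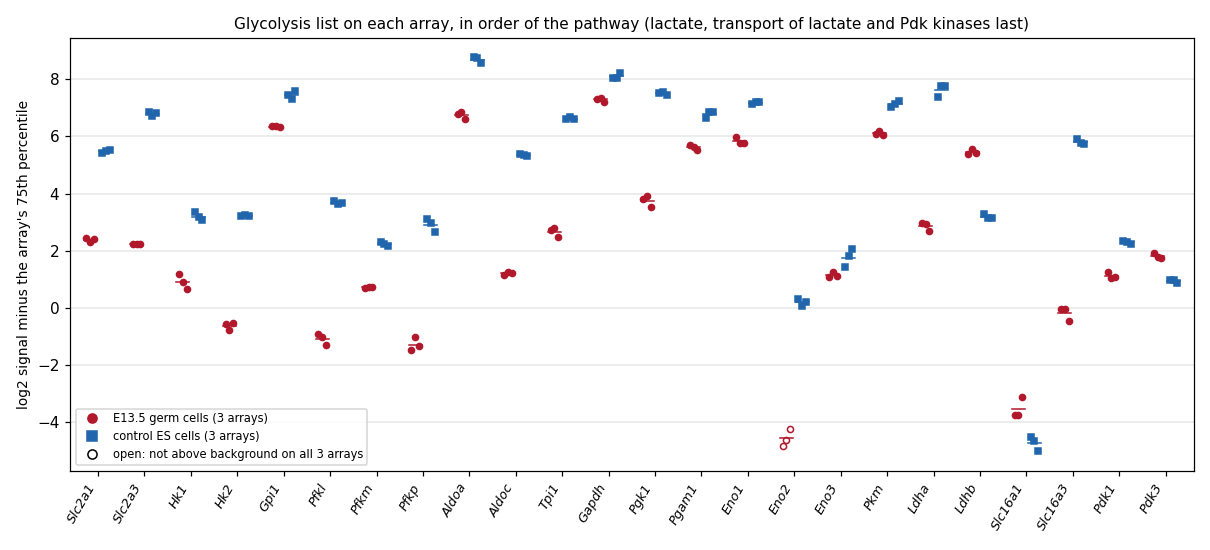
Level of each of the 24 genes of the glycolysis list on 3 E13.5 germ cell arrays (circles) and 3 control ES cell arrays (squares), in log2 signal minus the array's 75th percentile, with a bar at each mean. Genes run from glucose uptake on the left to lactate and pyruvate control on the right, and all but Ldhb, Slc16a1 and Pdk3 are higher in ES cells.

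The respiratory chain moved little and upward. Of 74 subunit genes 55 rose, 5 of them at least 2-fold, and 1 fell, Atp5a1 with -1.08. The list median of 0.47 stood above the 0.18 of all genes, and scaled to the spike-ins both turned negative, to -0.48 and -0.77. Genes of cytosolic and related ribosomal proteins behaved likewise, 55 of 81 up and 1 down with a median of 0.37 that turned to -0.59. The germ cell ribosomal proteins Rpl39l and Rpl10l, retrogene copies used in the testis, rose by 2.47 and 1.77.

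Cholesterol synthesis was lower, 20 of 24 down and 2 up with a median of -0.75. Pmvk fell by 3.39, Ebp by 2.60 and Cyp51 by 2.27, and the lanosterol synthase Lss by 1.26. In serine and one-carbon metabolism 12 of 20 fell and 4 rose. Phgdh, the first enzyme of serine synthesis, fell by 2.75, and Psat1 differed by -1.98 and the mitochondrial Mthfd1l differed by -3.15. Their regulator Atf4 fell by 1.36. Tdh, the threonine dehydrogenase on which mouse ES cells depend, was higher in PGCs by 1.10.

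Growth factor genes of the FGF family were mostly lower. Of 20 FGF ligands, receptors and targets 15 fell and 5 rose, among the falls Fgf15, at least 8.1-fold, and the feedback genes Dusp6, Spry2 and Etv4, with differences of -1.59, -2.35 and -1.17. Members below background in PGCs, such as Fgf15, passed the filter on dim genes through the ES cells alone. Over all settings tried, 7 to 15 members fell. Fgf9, which promotes the male germ cell program, rose by 2.21 from a level above background on 1 control array, and Fgfr2 by 2.20. In the Nodal and BMP list 7 of 23 rose and 10 fell, with Bmp4 higher by 1.21 and Lefty1 and Id1 differing by -1.05 and -2.15. Wnt genes were split, 11 of 24 up (45.8%) and 10 down (41.7%), beside 43.6% and 32.5% of all genes. The median of the Wnt list, 0.05, changed sign in 6 of 20 other settings. Wnt3 was at 0.72, 0.73 and 0.73 in PGCs and at -5.86, -5.43 and -5.41 in ES cells, above background on 1 control array, a rise of 6.30 ± 0.15, and the target gene Sp5 rose by 4.41. Tcf7l1, the repressor of Wnt targets in ES cells, fell by 2.25.

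Genes of the actin cytoskeleton and YAP targets fell in 18 of 20 and rose in none, with a median of -2.28 (-2.19 with bounds). Cnn1, an actin-binding protein of smooth muscle, was at 1.10, 1.37 and 1.39 in ES cells and below background in PGCs, at least 87.6-fold lower. Tagln was at -2.59, -3.03 and -2.77 against 3.73, 3.15 and 2.64, a difference of -5.97 ± 0.29. Actc1 was at least 8.99-fold lower, and Yap1, Ccn2 and Ccn1, of the stretch response, differed by -1.19, -2.25 and -2.96. Among 19 junction genes 12 fell and 7 rose, with Cldn6 and Cldn4 at least 8.59-fold and 18.3-fold lower and Cdh3 and Cldn5 higher by 2.22 and 2.21. Basement membrane genes fell in 9 of 17 and rose in 5, with Lama5 at -4.12 and Lama1 at -3.36. Collagens were split, 12 of 26 lower and 9 higher with a median of 0.12, and Col4a1 differed by -3.50.

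Hox genes, which pattern the body axis, were low in PGCs. Of 28 members tested, 25 fell and 1, Hoxc12, rose, with a median of -3.29 (-2.17 with bounds). Hoxb2 was at -0.04, 0.36 and 0.70 in ES cells and below background on the PGC arrays, at least 45.4-fold lower, and Hoxb4 at least 49.6-fold. Of the 25, 21 were not well above background on all 3 PGC arrays, and the count fell to 4 when a gene had to be above background on all 6 arrays.

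Markers of the cell types that ES cultures give rise to fell as well. Primitive endoderm markers were lower in 14 of 19 and higher in 2, the falls including Gata6 with -3.50, Lrp2 with -5.69 and Dab2 at least 7.65-fold, while Afp was at -1.24, -2.47 and -0.94 in PGCs and below background in ES cells, at least 18.7-fold higher. Trophectoderm markers were lower in 9 of 10 and Krt19 fell by 4.27. Of 10 neuroectoderm markers 6 fell and 2 rose, and of 13 fibroblast markers 11 fell, Vim by 3.62 and Thy1 by 3.14. Whether a few differentiated cells or all cells of the ES cultures carried these transcripts was not tested.

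Stress genes took separate courses. In the p53 list 16 of 21 fell and 1 rose. Perp and Gadd45a differed by -5.32 and -4.20, the cell death gene Bbc3 by -3.64 and Ccng1 by -3.37. Of 15 BCL2 family genes 9 fell and 2 rose, with Bak1 at -6.42, Mcl1 at -2.46, Hrk at least 18.8-fold lower, and Bik and Bcl2l1 higher by 2.18 and 1.23. Immediate-early genes, which dissociation can induce, were lower in PGCs in 14 of 17 and higher in 2. Egr1 was at -0.57, -1.86 and -0.90 against 2.34, 2.36 and 2.56 and Fos at -1.57, -3.67 and -2.70 against -0.61, -0.56 and -0.98. Both were lowest on the second PGC array.

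Heat shock genes rose in 13 of 18, with a median of 0.69 that turned to -0.26 when scaled to the spike-ins, and 1 fell, Hspb1 with -5.58. Hspa4l, a chaperone abundant in testis, was at 1.87, 1.63 and 1.85 against -0.88, -0.78 and -0.87, a rise of 2.63 ± 0.12, and Hspa2, the testis form of Hsp70, rose by 1.84. The inducible Hspa1a was at 0.05, -1.98 and -0.85 against -2.47, -2.42 and -2.63, a range over PGC arrays of 2.03 on the log2 scale against 0.21 over the controls, and like Fos it was lowest on the second PGC array. Of 15 interferon response genes 9 fell and 4 rose, with Oas2 and Gbp2 at -3.94 and -4.30.

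**Figure D5:**
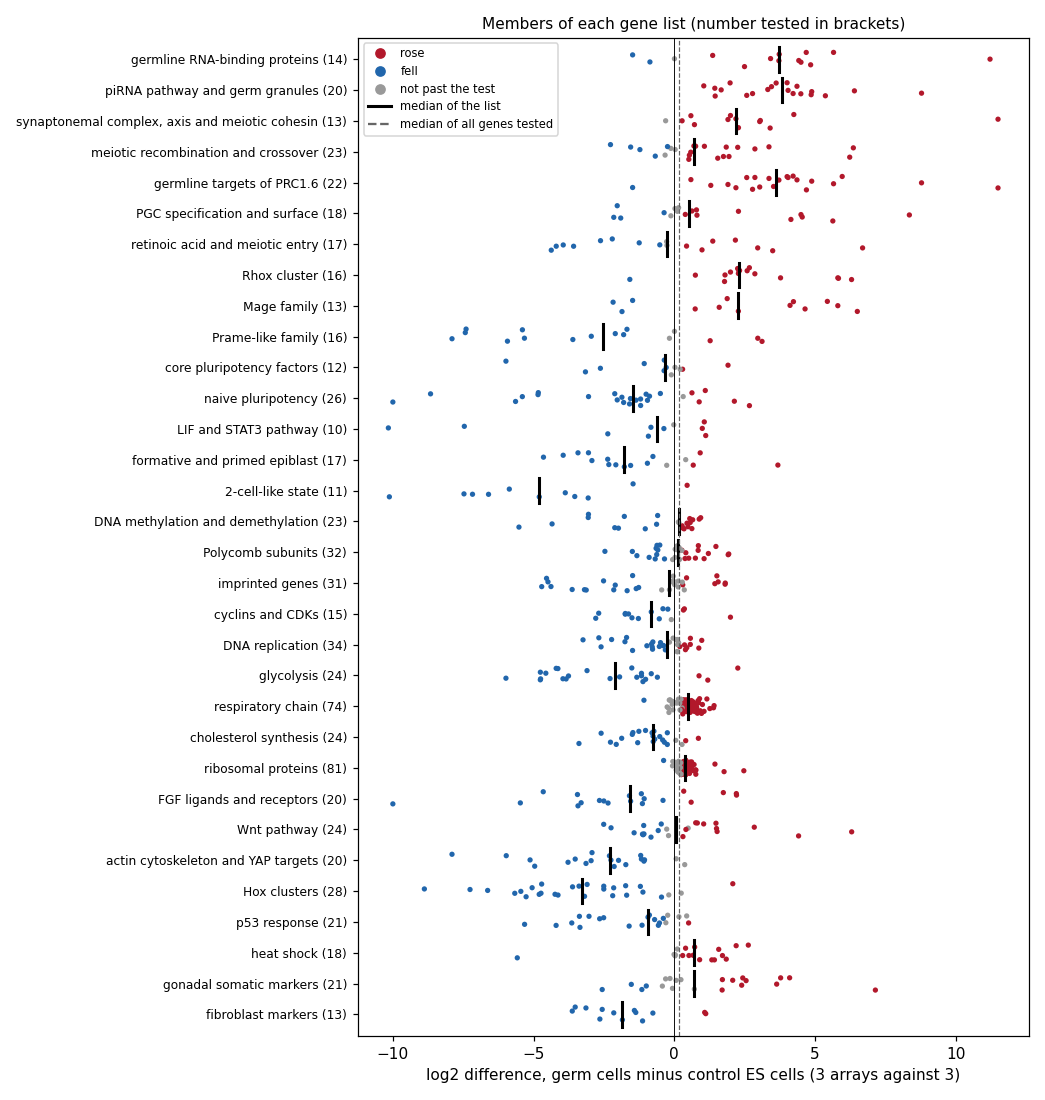
Each point is the log2 difference of 1 gene, E13.5 germ cells minus control ES cells over 3 arrays against 3, for 32 of the gene lists, with the number of genes tested in brackets, red for genes that rose, blue for genes that fell and grey for those not past the test. The black bar is the median of the list and the dashed line the 0.18 of all genes tested, and the piRNA list lies wholly to the right while glycolysis, Hox and actin genes lie mostly to the left.

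Outside these lists, the named genes with the largest fitted differences included Cst9, at least 233-fold higher, Asb9, at least 155-fold, and Xkrx, at least 89.9-fold. Cst9 was at 2.12, 2.70 and 1.44 in PGCs. Like the Sertoli hormone Amh, it was highest on the second PGC array and lowest on the third. Whether other gonadal cells added to its signal was not tested. The trypsin-like protease gene Prss29 was at least 115-fold higher on the probe used and 5.24 higher on another. Lower were Aqp3, a channel for water and glycerol, at least 240-fold, Calca, which encodes calcitonin, at least 248-fold with -5.28 on another probe, and the embryonic homeobox gene Obox6, at least 94-fold.

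The germ cell arrays differed little among themselves. The median SD of a gene over 3 arrays was 0.15 in PGCs and 0.14 in ES cells. Of 12713 named genes above background on all PGC arrays, 11 spanned more than 2 log2 units over them, against 12 of 13752 in the controls. The widest, Samd3, was at -5.38, -4.63 and -2.05 in PGCs, and Sycn, the next widest, at -4.66, -4.37 and -1.93. Both were chosen for this spread after their values were seen. PGC replicates 2 and 3 shared a slide and replicate 1 had another, and both genes were lowest on replicate 1 and highest on replicate 3. The part of the slide in this spread was not tested.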

How the data were processed

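Total RNA of 9 samples, labelled from 100 ng with Cy3 and Agilent's 1-colour spike-in transcripts per the labels' protocols, was hybridised to 9 arrays in 3 groups of 3. The deposited scanner files hold the intensity of 43020 spots besides controls, extracted with Agilent Feature Extraction 10.7.3.1, and its processed signal is already corrected for background, per the file headers. The deposited value table holds log2 values of unstated scale. It matched the scanner values after 75th percentile scaling and centring of each probe on its median, and its column medians ran from -0.12 to 0.39.

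Here log2 processed signals had the 75th percentile of the array subtracted. Spots of a probe were averaged and 65 probes flagged as outliers on any of the 9 arrays were left out. Probes were named through RefSeq accessions (GRCm38.p6, names only), 26012 of 39364 with a match. The probe with the highest mean over all 9 arrays stood for a gene. A gene was tested when well above background on all 3 arrays of the PGC or the control group. limma 3.58.1 (R 4.3.3) fitted all 9 arrays in 3 groups, with Benjamini-Hochberg adjustment over 20159 tests, and the procedure was tested on simulated data. The number of arrays limits the precision. Where a group was below background on all its arrays, a fold is "at least" the mean of the bright group over, per array, the higher of the lowest signal among probes above background and the dim probe's own.

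The members and gene lists were chosen with earlier results of these data known. Named are fixed check genes, the 10 largest rises and falls, the members of a list with the smallest p in each direction, and other list members beside the count of their list. Promoters are RefSeq windows, and the motif search used the 250 bases before each start. A few items are not reported here.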

Additional observations from a re-analysis of the deposited data

How the results depend on the processing

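The counts of rises and falls were recomputed under 20 other settings. Scaled to the spike-ins, 1155 genes rose, all at least 2-fold, and 7363 fell, all at least 2-fold. With no filter on dim genes, 6049 rose at least 2-fold. After normexp background correction with quantile normalization, whose added offset of 50 shrinks folds, 2061 rose and 2639 fell at least 2-fold with all 9 arrays, and 2372 rose at least 2-fold with the 6 arrays alone, a setting added after seeing the data. When a gene had to be above background on all 6 arrays, 2633 fell at least 2-fold, since fewer genes were tested. Leaving out 1 array at a time gave 8237 to 8764 rises and 6276 to 6411 falls, and 3918 to 4276 rises and 4041 to 4150 falls of at least 2-fold.

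Replicate numbers did not pair the samples: deviations of same-numbered PGC and control arrays correlated at -0.01, 0.02 and -0.03, and 1 of 3 PGC arrays correlated best with its own number. With the replicate number as a block, 8736 rose and 6509 fell. With the slide as a random block (correlation 0.29), 8378 rose and 6323 fell. Without both control arrays of the first slide, a setting also added later, 7001 rose and 5628 fell.

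Of 248 genes named, 208 kept direction and side of the threshold in every setting that could test them. Against the spike-ins Max turned to -0.10 and Pdk3 to -0.076, and 28 other rises were lost, among them Nanog, E2f6 and Cdkn1c. Without the control arrays of the first slide, Fos and Hspa1a no longer passed the test. With the mean of a gene's probes Bmp4 and Rhox8 were lost, and Csf1r, which had passed no test, went to 0.588. Leaving out 1 array lost no named call other than that of Col3a1. The signal over background is the limit for genes below background in 1 group, 388 in the controls and 973 in the PGCs, for which only bounds are given.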

Other observations

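Ribosome biogenesis genes and Myc targets rose in 19 of 30 and fell in 6, with a median of 0.41 against 0.18 for all genes tested and of -0.54 when scaled to the spike-ins, although Myc itself fell by 3.16. Polr1b, a subunit of RNA polymerase I, was higher by 2.08, and the probes of Pes1, a factor of large subunit assembly, gave 3.17 and 0.04.

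Keratin genes rose in 7 of 26 and fell in 9. The simple epithelial keratins Krt8 and Krt18 fell by 1.89 and 2.12 and Krt20 at least 29.5-fold, while Krt17 rose by 3.57 and Krt24, not well above background in the controls, at least 9.46-fold. Of the wider list of gonadal somatic markers 10 of 21 rose and 4 fell, with a median of 0.71 that turned to -0.24 when scaled to the spike-ins. Sox9 and Gata4, of Sertoli and other somatic cells, differed by 0.06 and -0.31 and did not pass the test, and Cyp11a1 and Star, of steroid synthesis, rose by 2.43 and 1.71.

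Of 131 long noncoding RNA genes tested 52 rose and 41 fell. Among 5892 identifiers that matched no RefSeq gene, 2510 rose and 1592 fell, and they are not named here.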
